A study of Homo sapiens with 48 samples.

Results

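Lactate export and pH control were described through 7 genes: the lactate transporters SLC16A1 and SLC16A3, their chaperone BSG, the carbonic anhydrases CA9, CA12 and CA2, and the bicarbonate transporter SLC4A7. The members were chosen by gene symbol, out of 31426 symbols on an Illumina bead array, and 11 of its 47323 probes carry one of the 7 symbols. Of these genes, 4 could be tested. CA9 was detected only in the hypoxia group of PC-3 and is described without a test, because a filter on detection would admit it only through that group. SLC16A1 and CA2 were not above background on any array in either line, and their probes are described by detection only.

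The arrays measured RNA of PC-3 and 22Rv1, both human prostate cancer cell lines. PC-3 was derived from a bone metastasis. The 22Rv1 line comes from a tumour grown in mice. Cells were held for 24 h at 37 °C at 5, 2, 1, 0.5, 0.2 or 0% O2, and every oxygen level had its own normoxia control in 95% air, with 2 replicates of each condition. This gave 48 arrays in 24 groups of 2, or 12 hypoxia and 12 normoxia arrays per line. The labels do not say whether replicates came from separate cultures, and a p-value therefore reflects only how far these samples scatter, possibly for technical reasons. Precision is limited by the number of arrays, with 2 against 2 at an oxygen level and 12 against 12 for a mean over all 6.

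Each array detected 13750 to 16494 probes (29.1 to 34.9%). The hypoxia genes ADM, VEGFA, NDRG1, BNIP3 and SLC2A1 rose in both lines over the 6 levels, with median log2 changes of 1.85 in PC-3 and 2.97 in 22Rv1, while EGLN3 was not above background. The 22Rv1 markers KLK2 and FOLH1 were detected on all 24 arrays of 22Rv1 and on no array of PC-3. KLK3, a further marker of 22Rv1, was not above background in either line, and HOXB13 was detected in both lines. Of the PC-3 markers VIM, CAV1, CD44, ANXA1, KRT7 and S100A4, the first 5 were higher in PC-3 in normoxia and S100A4 was not separated (adjusted p = 0.067). For replicate 2 of 22Rv1 at 0.2% O2 the deposited tables exchange the labels of the hypoxia array and its control. Labels of the intensity table were used, and the results at that level are also given without both arrays.

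Cells that rely on glycolysis produce lactate together with protons, and monocarboxylate transporters carry both out of the cell. SLC16A3 encodes MCT4, the exporter typical of glycolytic cells and a known target of hypoxia-inducible factor, and SLC16A1 encodes the more widely expressed MCT1. BSG (basigin, CD147) is the membrane glycoprotein that brings both to the cell surface. CA9 and CA12 encode carbonic anhydrases with their active site outside the cell, which convert carbon dioxide to bicarbonate and protons there, and CA9 is among the best known hypoxia markers of tumours. CA2 is a cytosolic carbonic anhydrase, and SLC4A7 (NBCn1) carries sodium and bicarbonate into the cell.

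Hypoxia-inducible factor binds a short core sequence, ACGTG or GCGTG, so the promoters of SLC16A3, CA12 and CA9 are shown with BSG, whose window held the most matches. Each line gives the 250 bases before a RefSeq transcript start in GRCh38.p14, 5′ to 3′ on the strand of the gene, with either core in capitals on whichever strand it lies. A core on the opposite strand reads CACGT or CACGC. SLC16A3 lies on the plus strand of chromosome 17 and its window is chr17:82228792-82229041. The windows of CA9 (chr9:35673678-35673927, plus strand), CA12 (chr15:63381847-63382096, minus strand) and BSG (chr19:572346-572595, plus strand) follow.
SLC16A3: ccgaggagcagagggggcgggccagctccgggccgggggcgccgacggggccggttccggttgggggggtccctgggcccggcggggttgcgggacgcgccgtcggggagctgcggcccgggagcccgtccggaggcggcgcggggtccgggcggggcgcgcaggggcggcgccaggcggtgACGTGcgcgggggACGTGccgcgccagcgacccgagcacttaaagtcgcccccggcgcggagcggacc
CA9: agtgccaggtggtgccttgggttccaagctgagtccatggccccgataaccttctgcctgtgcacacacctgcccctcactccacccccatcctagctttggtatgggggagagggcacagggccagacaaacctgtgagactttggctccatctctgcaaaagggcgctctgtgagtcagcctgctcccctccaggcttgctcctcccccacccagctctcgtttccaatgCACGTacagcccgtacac
CA12: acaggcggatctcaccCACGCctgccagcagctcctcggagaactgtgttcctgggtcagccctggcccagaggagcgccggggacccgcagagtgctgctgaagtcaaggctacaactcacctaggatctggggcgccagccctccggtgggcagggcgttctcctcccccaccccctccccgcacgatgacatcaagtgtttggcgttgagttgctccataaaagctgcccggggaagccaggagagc
BSG: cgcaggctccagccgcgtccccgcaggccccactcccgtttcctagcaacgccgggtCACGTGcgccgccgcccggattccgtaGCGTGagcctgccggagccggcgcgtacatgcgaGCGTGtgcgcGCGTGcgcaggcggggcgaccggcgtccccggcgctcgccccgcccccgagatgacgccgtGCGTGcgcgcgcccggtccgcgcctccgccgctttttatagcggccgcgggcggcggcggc
The SLC16A3 window holds 2 copies of ACGTG. It is 1 of 5 windows listed for that gene, of which 3 hold either core and 1 holds ACGTG, and the window with the most ACGTG was taken for each gene. CA9 has 1 ACGTG and CA12 has 1 GCGTG and no ACGTG, both on the opposite strand. BSG has 6 matches, 2 of them overlapping ACGTG on the 2 strands of the same 6 bases. The window of SLC4A7 (chr3:27484385-27484634, minus strand) holds 2 copies of GCGTG. Either core occurs in 43.2% of the 35116 windows of that length in the table and ACGTG in 18.5%, so a match is a description of these letters and not a binding site. SLC16A1 and CA2 were not matched in the table.

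SLC16A3, the lactate exporter MCT4, rose in both lines and more in 22Rv1. Its single probe (ILMN_2364022) was detected on all 48 arrays. Levels are background-corrected, quantile-normalized log2 intensities of that probe. In PC-3 the 12 normoxia arrays ranged from 10.52 to 10.95 with a median of 10.79, and the 12 hypoxia arrays from 11.15 to 12.04 with a median of 11.73. In 22Rv1 the normoxia arrays ranged from 7.51 to 8.29 (median 7.78) and the hypoxia arrays from 8.84 to 11.39 (median 10.89). All 12 hypoxia arrays lay above all 12 normoxia arrays in each line. Over the 6 levels the log2 change, hypoxia minus own control, was 0.90 ± 0.08 (SE of the fit, n = 12 arrays per condition) in PC-3, a 1.87-fold rise (limma adjusted p = 1.3e-10). In 22Rv1 it was 2.87 ± 0.08, a 7.33-fold rise (limma adjusted p = 2.7e-24). The change was positive in 12 of 12 pairs of hypoxia and control in each line.

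**Figure D1:**
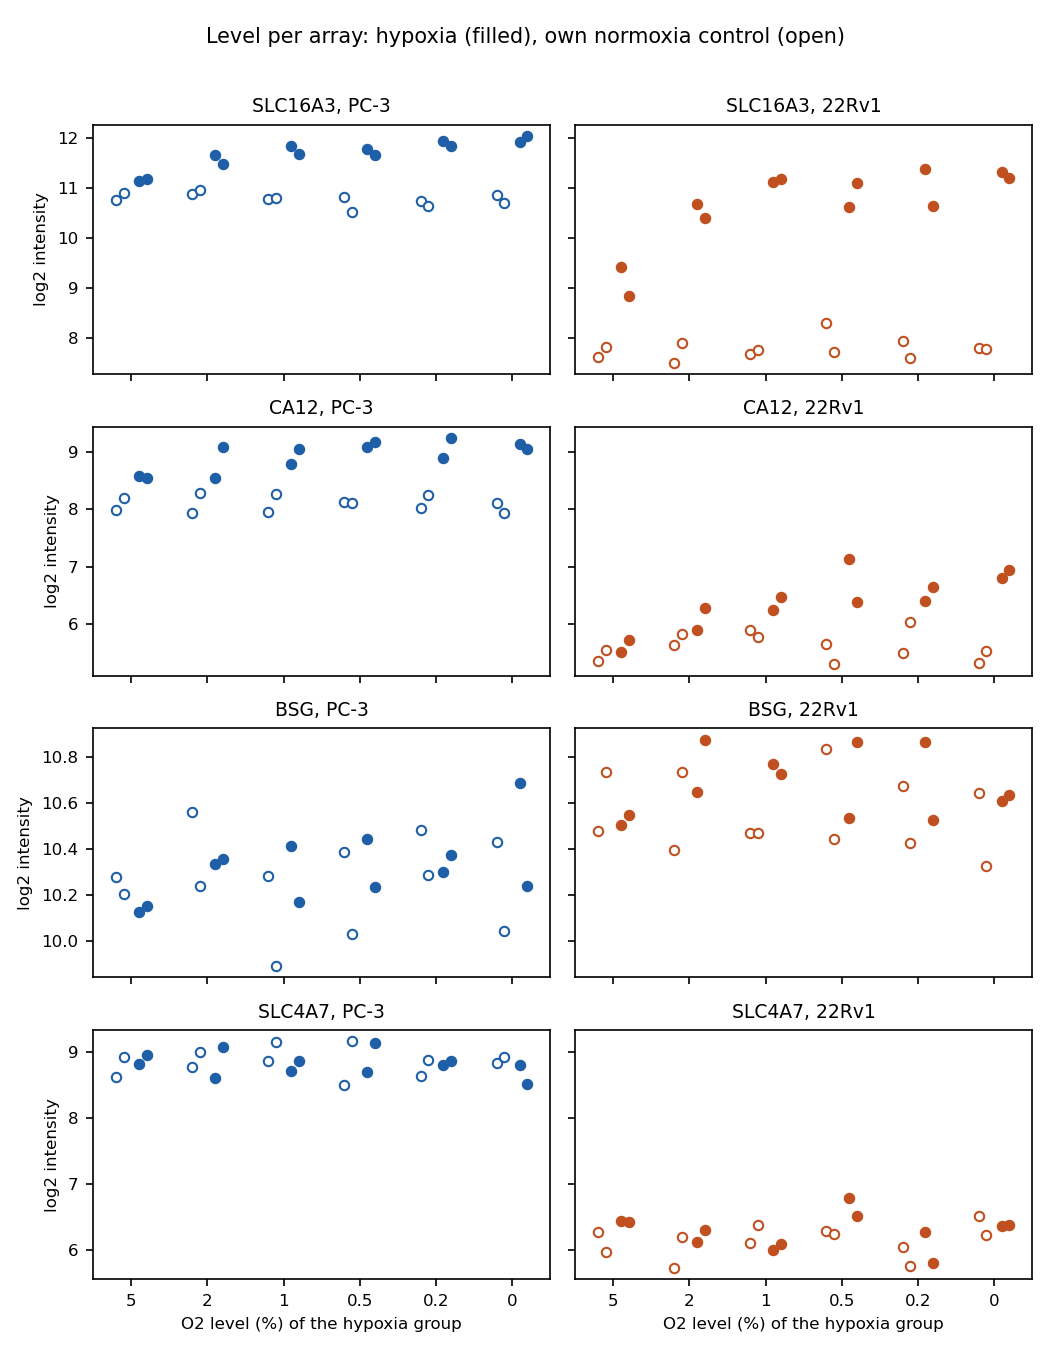
Log2 intensity on each array (y axis) of SLC16A3, CA12, BSG and SLC4A7 in PC-3 and 22Rv1, by the oxygen level of the hypoxia group in % (x axis), with hypoxia arrays filled and the arrays of the own normoxia control open. Filled points of SLC16A3 lie above all open points in both lines, those of CA12 do so in PC-3, and those of BSG and SLC4A7 overlap the open points.

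By oxygen level, the 22Rv1 hypoxia arrays of SLC16A3 (replicate 1, then 2) read 9.43 and 8.84 at 5% O2 against controls of 7.62 and 7.83. They read 10.68 and 10.41 at 2%, against 7.51 and 7.90. At 1% they read 11.13 and 11.17 against 7.68 and 7.77. The step from 5 to 2% was the widest between neighbouring levels. At 0.5% the arrays read 10.63 and 11.10 against 8.29 and 7.73, and at 0.2% they read 11.39 and 10.65 against 7.94 and 7.60. At 0% they read 11.32 and 11.21 against 7.80 and 7.79. Ordered by mean level, 0% stood first, then 1, 0.2, 0.5, 2 and 5%. The 2 arrays of 5% lay below those of every other level, the 2 of 0% just above the 2 of 1%, and the other neighbours in that order overlapped.

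The change of SLC16A3 in 22Rv1 passed the test at all 6 levels, with log2 values of 1.41 at 5%, 2.84 at 2%, 3.42 at 1%, 2.85 at 0.5%, 3.25 at 0.2% and 3.47 at 0%, each ± 0.19 (SE, n = 2 arrays per condition). It was 1 of 14 genes of 16438 that were higher at every level in that line (0.0852%). The slope per step from 5 to 0% was 0.31 ± 0.05 (limma adjusted p = 1.1e-05). It was 0.070 in the other deposited table and 0.052 with that table's labels, and passed in neither (adjusted p = 0.86 and 0.92). The change at 0% exceeded the mean of 0.2 to 1% by 0.29, which did not pass (adjusted p = 0.49). Without hypoxia replicate 1 the change at 5% was 1.11 and no longer passed (adjusted p = 0.088), nor did the change at 5% pass under median centring (1.11, adjusted p = 0.10), in 22Rv1 fitted alone (1.41, adjusted p = 0.054), in the other table (1.16, adjusted p = 1.0) and with that table's labels (1.41, adjusted p = 1.0). With both disputed arrays left out, the change was 2.91 over the 6 levels and 3.45 at 0.2%, where 1 array then stood against 1 (adjusted p = 1.3e-11, with the lone arrays assumed to vary like those of the other groups). Under the labels of the other table it was 0.20 at 0.2% and no longer passed.

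In PC-3 the SLC16A3 hypoxia arrays read 11.15 and 11.18 at 5% O2 against 10.77 and 10.91. They read 11.66 and 11.49 at 2% against 10.87 and 10.95, and 11.85 and 11.67 at 1% against 10.78 and 10.79. Even at 5% no hypoxia array reached down to its controls. At 0.5% the arrays read 11.78 and 11.66 against 10.82 and 10.52, at 0.2% 11.94 and 11.83 against 10.75 and 10.64, and at 0% 11.93 and 12.04 against 10.86 and 10.69. The 5% arrays again lay below those of every other level, and all other neighbours in the order of levels overlapped. The change passed at 1% (0.97), 0.5% (1.05), 0.2% (1.19) and 0% (1.21), each ± 0.19. At 5% it was 0.32 (adjusted p = 1.0) and at 2% 0.66 (adjusted p = 0.20), and neither passed. The call at 1% was lost when any of 3 of its 4 arrays was left out (adjusted p = 0.054 to 0.12), and those at 1 and 0.5% were lost under median centring. With the labels of the other table, which change no PC-3 array but do change the shared estimate of the spread, none of the 4 passed (adjusted p = 0.29 to 0.77). In the values of the other table none of the 4 passed either (limma adjusted p = 0.24 to 0.72). The slope per step was 0.17 ± 0.05 (limma adjusted p = 0.044), and it lost its call under 21 of the 24 omissions of 1 PC-3 array.

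**Figure D2:**
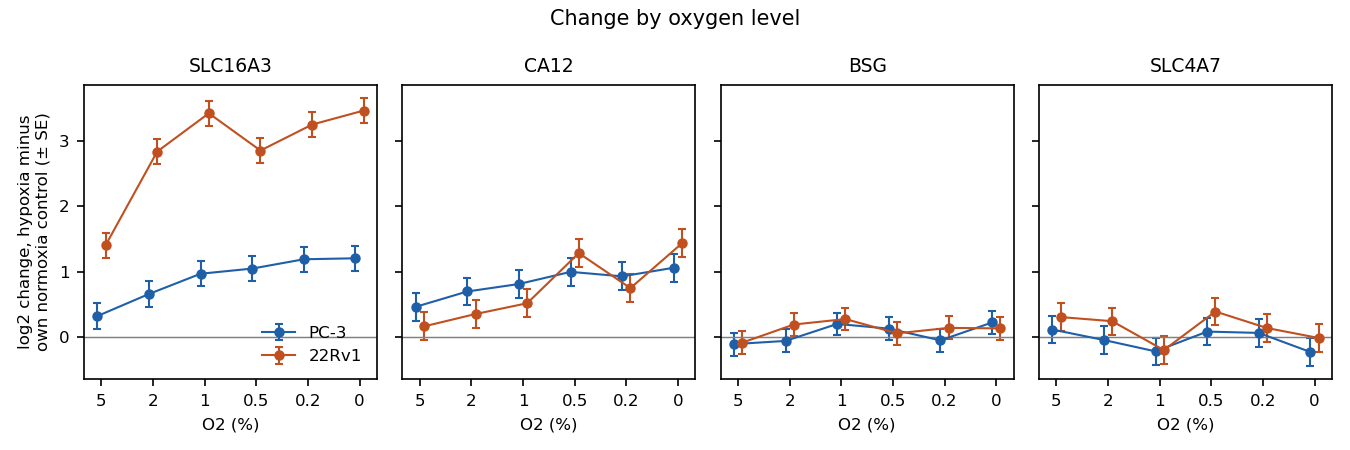
Log2 change, hypoxia minus own normoxia control, with the SE of the fit as bars (y axis), at each oxygen level in % (x axis) for 4 members in PC-3 (blue) and 22Rv1 (orange). SLC16A3 in 22Rv1 goes from 1.41 at 5% to 3.47 at 0% and in PC-3 from 0.32 to 1.21, while BSG and SLC4A7 stay between −0.22 and 0.39.

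The rise of SLC16A3 was larger in 22Rv1 than in PC-3 by a log2 value of 1.97 ± 0.11 (limma adjusted p = 5.9e-15). In that comparison 22.7% of all genes tested passed. It had the 18th highest difference of the 16438 genes, the 12th highest change in 22Rv1 and the 119th in PC-3. The lines started from different levels: in normoxia the log2 difference, 22Rv1 minus PC-3, was −2.99 ± 0.08 (limma adjusted p = 8.4e-27), and the arrays of the lines did not overlap. Of the 12 hypoxia arrays of 22Rv1, 6 lay above all PC-3 normoxia arrays, 3 within their range and 3 below. In bulk RNA, fewer cells that express a gene and less of its RNA per cell cannot be told apart.

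The PC-3 markers were higher in hypoxia in 22Rv1, where 6 of 6 rose with a median change of 0.46 and 19.8% of all genes rose. Of the 22Rv1 markers 2 of 5 tested also rose in that line, and none fell. In PC-3 3 of the 6 PC-3 markers rose and 1 fell, where 10.7% of all genes rose and 13.3% fell. The log2 of the summed level of the PC-3 markers was 9.44 to 9.89 on the 22Rv1 normoxia arrays, 9.84 to 10.98 on the 22Rv1 hypoxia arrays and 13.61 to 14.20 in PC-3. Without S100A4, which does not separate the lines, it was 8.51 to 8.95, 8.86 to 9.68 and 13.57 to 14.16. CAV1 and KRT7 were detected on no 22Rv1 normoxia array and on 5 and 4 of the 12 hypoxia arrays. At 2% O2 neither was detected on a 22Rv1 hypoxia array, and at 0% KRT7 was detected on replicate 2. The part of these markers in the changes of 22Rv1 was not tested. KLK2 and FOLH1 were detected on no PC-3 array in either condition.

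SLC16A1, the other proton-linked lactate transporter of the set, is represented by 1 probe (ILMN_1757052). It was not above background on any of the 48 arrays, with a lowest detection p of 0.18 and deposited intensities of 78.1 to 114. No change can be given for MCT1 in either line.

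BSG, the chaperone of both transporters, was detected on all 48 arrays by its brighter probe (ILMN_1778374), and no change in hypoxia passed the test in either line. Its levels in PC-3 ranged from 9.89 to 10.56 in normoxia (median 10.28) and from 10.12 to 10.69 in hypoxia (median 10.32). In 22Rv1 they ranged from 10.33 to 10.84 (median 10.48) and from 10.50 to 10.88 (median 10.64). Only 1 PC-3 and 3 22Rv1 hypoxia arrays lay above all normoxia arrays of their line. The change over the 6 levels was 0.06 ± 0.07 in PC-3 (95% interval −0.09 to 0.21, limma adjusted p = 0.64) and 0.12 ± 0.07 in 22Rv1 (−0.02 to 0.27, adjusted p = 0.18). With the replicate pairs as a block the 22Rv1 value passed (adjusted p = 0.041), and with median centring it was −0.0051. At single levels the PC-3 changes lay between −0.10 and 0.23 and the 22Rv1 changes between −0.08 and 0.28. The other BSG probe (ILMN_1730709) was not above background on any array.

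Of the 4 members tested, SLC16A3 and CA12 rose in both lines over the 6 levels and none fell. In PC-3 10.7% of all genes rose and 13.3% fell (24.0% in either direction), and in 22Rv1 19.8% rose and 22.8% fell (42.6%). At single levels 8 of 24 member tests passed in PC-3 and 9 of 24 in 22Rv1, all upward. In PC-3 no member passed in limma at 5% (1 at an unadjusted p under 0.05) or at 2% (2 unadjusted), where 0.00608% and 0.298% of all genes were higher. There 2 members passed at 1% (1.16% of all genes higher), 2 at 0.5% (2.4%), 2 at 0.2% (2.69%) and 2 at 0% (4.35%). In 22Rv1 1 member passed at 5% (0.0852%), 1 at 2% (2.85%), 1 at 1% (7.45%), and 2 each at 0.5% (13.0%), 0.2% (5.8%) and 0% (13.6%).

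CA12, a membrane carbonic anhydrase with its active site outside the cell, rose in both lines from very different starting levels. The amounts were similar in the main fit of its brighter probe, but not in every alternative. Its brighter probe (ILMN_1720998) was detected on all 48 arrays. In PC-3 the normoxia arrays ranged from 7.93 to 8.28 (median 8.11) and the hypoxia arrays from 8.54 to 9.24 (median 9.05), without overlap. In 22Rv1 the normoxia arrays ranged from 5.30 to 6.04 (median 5.60) and the hypoxia arrays from 5.52 to 7.14 (median 6.40), and 9 of the 12 hypoxia arrays lay above all normoxia arrays. The change over the 6 levels was 0.83 ± 0.09 in PC-3, a 1.78-fold rise (limma adjusted p = 6.1e-09), and 0.75 ± 0.09 in 22Rv1, a 1.69-fold rise (adjusted p = 1.2e-08). It was positive in 12 of 12 pairs in each line.

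In 22Rv1 the CA12 hypoxia arrays (replicate 1, then 2) read 5.52 and 5.73 at 5% O2 against controls of 5.36 and 5.56, and 5.91 and 6.28 at 2% against 5.64 and 5.84. At 1% they read 6.24 and 6.47 against 5.90 and 5.77, and at 0.5% 7.14 and 6.39 against 5.66 and 5.30. At 0.2% they read 6.40 and 6.64 against 5.50 and 6.04, and at 0% 6.80 and 6.94 against 5.33 and 5.53. The arrays at 5% overlapped their controls and those at the 5 lower levels did not. The change passed at 0.5% (1.29), 0.2% (0.75) and 0% (1.44), each ± 0.21 (SE, n = 2 arrays per condition). At 5, 2 and 1% it was 0.17, 0.36 and 0.52 and did not pass, though the value at 1% passed with the replicate pairs as a block (adjusted p = 0.0060). The slope per step from 5 to 0% was 0.24 ± 0.05 (limma adjusted p = 0.0013). The change at 0% exceeded the mean of 0.2 to 1% by 0.58 (adjusted p = 0.12, and 0.0084 with the block). With both disputed arrays left out the change over the 6 levels was 0.78, and at 0.2% it was 0.90 from 1 array against 1 (adjusted p = 0.037, with the spread taken from the other groups). Leaving out any of 3 of the 4 arrays at 0.2% ended that call (changes of 0.49 to 0.87, adjusted p = 0.068 to 0.26), and so did 7 of 12 other settings.

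In PC-3 the CA12 hypoxia arrays read 8.57 and 8.54 at 5% O2 against 7.98 and 8.20, and 8.54 and 9.08 at 2% against 7.93 and 8.28. At 1% they read 8.78 and 9.05 against 7.94 and 8.26, and at 0.5% 9.08 and 9.16 against 8.13 and 8.11. At 0.2% they read 8.89 and 9.24 against 8.01 and 8.25, and at 0% 9.13 and 9.05 against 8.12 and 7.94. No level overlapped its own controls, and in the order of levels every pair of neighbours overlapped. The change passed at 1% (0.81), 0.5% (1.00), 0.2% (0.93) and 0% (1.06), each ± 0.21. At 5% it was 0.47 (adjusted p = 1.0) and at 2% 0.70 (adjusted p = 0.24, and 0.0047 with the block). The call at 1% was lost when any 1 of its 4 arrays was left out (adjusted p = 0.11 to 0.42). The call at 0.2% was lost without hypoxia replicate 2 or normoxia replicate 1 (both adjusted p = 0.14). Under median centring the changes at 1, 0.5 and 0.2% were 0.74, 0.56 and 0.90 and did not pass. The slope per step was 0.11 and did not pass (adjusted p = 0.38, and 0.045 with the block).

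In normoxia CA12 was lower in 22Rv1, with a log2 difference from PC-3 of −2.48 ± 0.09 (limma adjusted p = 3.4e-23). No 22Rv1 hypoxia array reached the lowest PC-3 normoxia array (highest 7.14 against 7.93). The responses of the lines differed by −0.08 ± 0.12 (22Rv1 minus PC-3, 95% interval −0.33 to 0.17, adjusted p = 0.72). Without background correction the difference was −0.33 and in the other deposited table −0.37, and both passed (adjusted p = 0.0021 and 0.0041).

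The second CA12 probe (ILMN_2382942) was detected on all 24 PC-3 arrays and on no 22Rv1 array. In PC-3 its normoxia arrays ranged from 5.76 to 6.21 (median 6.06) and its hypoxia arrays from 6.42 to 7.35 (median 6.93), without overlap. The change over the 6 levels was 0.86 ± 0.07 (limma adjusted p = 6.4e-11), positive in 12 of 12 pairs, close to that of the first probe. It passed at 1, 0.5, 0.2 and 0% (0.78, 1.12, 1.04 and 1.18), the same levels as the first probe. In 22Rv1 it stayed between 4.21 and 4.62 on all arrays, where the first probe rose, so the rise in 22Rv1 rests on 1 of the 2 probes. In normoxia its signal was at least 1.87-fold lower in 22Rv1 than in PC-3. Which transcripts each probe reads was not analysed here.

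**Figure D3:**
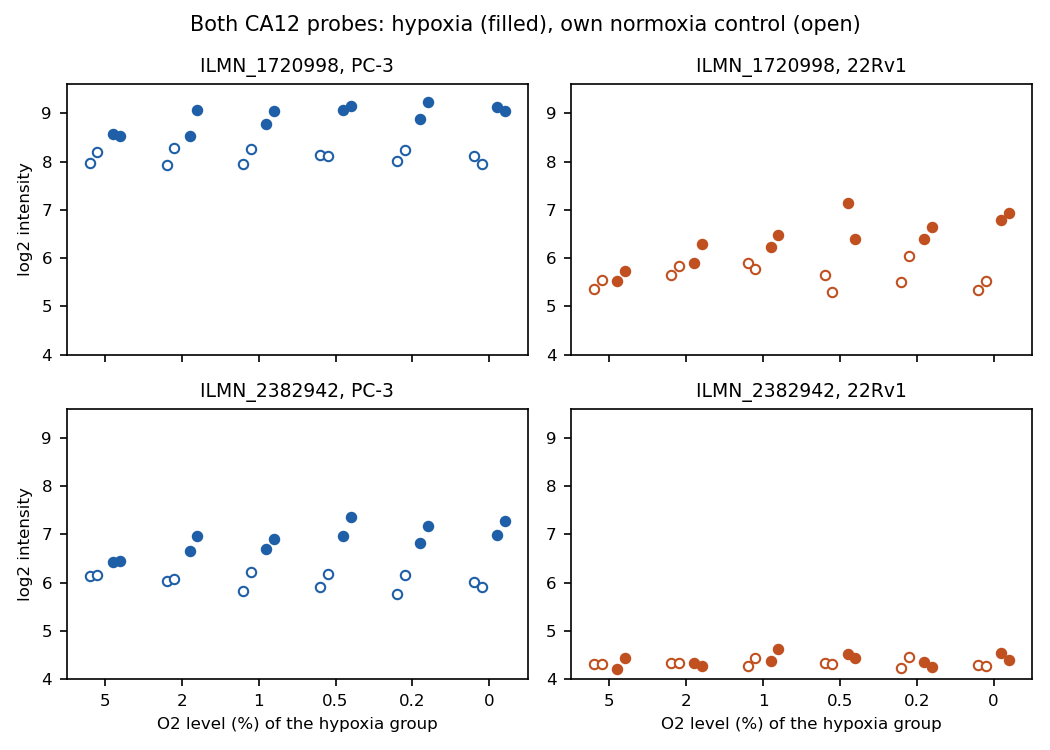
Log2 intensity (y axis) of the 2 CA12 probes on each array of PC-3 and 22Rv1, by the oxygen level of the hypoxia group in % (x axis), with hypoxia arrays filled and own normoxia controls open. Both probes lie higher in hypoxia in PC-3, while in 22Rv1 the second stays between 4.21 and 4.62.

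CA9, the other membrane carbonic anhydrase, was near background throughout. Its 1 probe (ILMN_1725139) was detected on 5 of the 12 PC-3 hypoxia arrays and on no PC-3 normoxia array and no 22Rv1 array. The PC-3 hypoxia arrays (replicate 1, then 2) read 4.35 and 4.63 at 5% O2, 4.55 and 5.06 at 2%, and 4.74 and 5.71 at 1%. They read 5.27 and 4.51 at 0.5%, 4.38 and 5.36 at 0.2%, and 4.83 and 5.42 at 0%. The detected arrays were replicate 2 at 2, 1, 0.2 and 0% and replicate 1 at 0.5%, so at no level did both arrays detect it. PC-3 normoxia arrays ranged from 4.31 to 4.73 (median 4.37), and 7 of the 12 hypoxia arrays lay above all of them. Among these 7 the arrays at 4.74 and 4.83 were themselves not detected. The hypoxia array was the higher in 9 of 12 pairs. No test is given, because the gene passed the detection filter only through the PC-3 hypoxia arrays. For the same reason the counts of arrays and pairs are descriptions and no support for a rise.

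No fold is given for CA9 in PC-3, because at no level did both hypoxia arrays detect it and no normoxia array did. In 22Rv1 the arrays ranged from 4.23 to 4.53 in hypoxia and 4.26 to 4.46 in normoxia, all below detection.

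**Figure D4:**
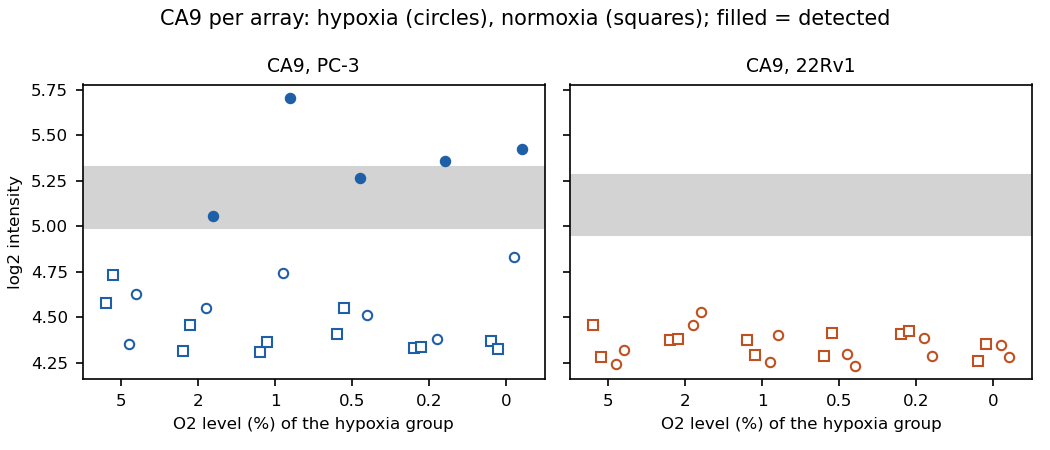
Log2 intensity of CA9 (y axis) on each array of PC-3 and 22Rv1 by the oxygen level of the hypoxia group in % (x axis), hypoxia as circles and own normoxia controls as squares, filled where detected. The grey band spans the lowest signal of a detected probe on each array (4.99 to 5.33 in PC-3, 4.95 to 5.28 in 22Rv1), and 5 PC-3 hypoxia arrays are filled.

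CA2, the cytosolic enzyme, has 2 probes (ILMN_1662795 and ILMN_2199439), and neither was above background on any array. Their lowest detection p-values were 0.10 and 0.21. No statement on its response is possible in either line.

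SLC4A7, the sodium bicarbonate cotransporter, did not change in a test in either line but differed strongly between the lines. Its brighter probe (ILMN_2200917) was detected on all 48 arrays. PC-3 normoxia arrays ranged from 8.50 to 9.17 (median 8.88) and hypoxia arrays from 8.52 to 9.14 (median 8.82). In 22Rv1 they ranged from 5.73 to 6.52 (median 6.22) and from 5.80 to 6.79 (median 6.33). Hypoxia and normoxia arrays overlapped in each line, with 1 22Rv1 hypoxia array above all controls. The change over the 6 levels was −0.03 ± 0.09 in PC-3 (95% interval −0.21 to 0.14, limma adjusted p = 0.85) and 0.15 ± 0.09 in 22Rv1 (−0.03 to 0.32, adjusted p = 0.17, and 0.031 with the block). At single levels the PC-3 changes lay between −0.22 and 0.12 and the 22Rv1 changes between −0.20 and 0.39. The highest, 0.39 at 0.5%, passed with the block (adjusted p = 0.026).

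In normoxia SLC4A7 was lower in 22Rv1, with a log2 difference from PC-3 of −2.72 ± 0.09 (limma adjusted p = 1.3e-24). The second probe (ILMN_1808354) was detected on 24 PC-3 arrays and 2 22Rv1 arrays. It did not change in PC-3 (−0.06 ± 0.08, adjusted p = 0.70), and 22Rv1 was lower at an adjusted p of 7.5e-26, without a size because 1 of 12 of its normoxia arrays detected it.

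Between the lines in normoxia all 4 members tested passed, and 71.8% of all genes did. SLC16A3, CA12 and SLC4A7 were lower in 22Rv1 (−2.99 to −2.48). BSG was higher in 22Rv1 by 0.29 ± 0.07 (adjusted p = 0.00042), with overlapping arrays, and under median centring the 0.17 left did not pass (adjusted p = 0.14). CA9 was below detection in both lines in normoxia. In the difference of the responses SLC16A3 was the 1 of 4 that passed.

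Over the slope with falling oxygen, 1 member passed upward in PC-3 (0.949% of all genes) and 2 in 22Rv1 (6.65%). At 0% beyond 0.2 to 1% no member passed in limma in PC-3 (0.0% of all genes, and no member at an unadjusted p under 0.05) or in 22Rv1 (13.2%, and 1 member unadjusted).

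The genes whose 12 level changes (6 levels in each line) ran most alike with SLC16A3 were PFKFB4 (r = 0.98), VEGFB (0.98) and BNIP3 (0.98), out of 8186 genes detected on all arrays. Over the 6 levels in 22Rv1 their changes were 3.83, 1.24 and 2.97. For CA12 they were UBAP1, LOC407835 and ANG (each 0.95), with PC-3 changes of 0.20, 0.13 and 0.69. For BSG they were CTNNBIP1 (0.91), SPINT2 (0.88) and EFNA4 (0.82), and for SLC4A7 SMNDC1 (0.90) and DECR1 (0.87). No level change of BSG or SLC4A7 passed in the main fit (lowest limma adjusted p = 0.17), so no shared response is read from these. The 12 points of each gene come from the same arrays and include the difference between lines. Over these 12 points of both lines SLC16A3 had r = 0.22 with CA12 and 0.54 with BSG, and no correlation within a line was computed. Within each line SLC16A3 and CA12 both had their smallest change at 5% and their largest at 0%. In PC-3 these were 0.32 and 1.21 for SLC16A3 and 0.47 and 1.06 for CA12. In 22Rv1 they were 1.41 and 3.47 for SLC16A3 and 0.17 and 1.44 for CA12.

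A further 85 genes of lactate and pyruvate handling and pH control were listed in 6 classes, of which 57 could be tested. In PC-3 9 of them rose and 6 fell over the 6 levels, where 10.7% of all genes rose and 13.3% fell, with a median change of 0.01 against −0.01 over all genes. In 22Rv1 17 rose and 12 fell, where 19.8% of all genes rose and 22.8% fell, with a median of 0.04 against −0.01. SLC26A3, detected on 5 hypoxia arrays of 22Rv1 and on no other array, was left out of these counts for the same reason as CA9. The 2 largest rises in PC-3 were SLC26A6, an anion exchanger (0.95 ± 0.06, limma adjusted p = 4.7e-14), and SLC4A3, a chloride-bicarbonate exchanger (0.62 ± 0.08). SLC4A3 was detected on all 12 PC-3 hypoxia arrays and on 6 of 12 normoxia arrays, whose mean of 5.07 lay within the range of the lowest detected signals, so the size is uncertain. The falls were led by SLC16A14, a transporter of the SLC16 family detected on 1 of 12 hypoxia arrays and so given without a size, and MPC1 (BRP44L on the array), a subunit of the mitochondrial pyruvate carrier (−0.38 ± 0.07). In 22Rv1 the largest rises were SLC16A8, the lactate transporter MCT3, detected on 9 of 12 normoxia arrays (1.03 ± 0.07), and LDHA, the lactate dehydrogenase subunit that favours lactate formation (1.00 ± 0.03). LDHA also rose in PC-3 (0.17 ± 0.03), and the lines differed by 0.83 ± 0.05 (limma adjusted p = 5.9e-15). The largest falls in 22Rv1 were ATP6V0A2, a subunit of the vacuolar proton pump (−0.51 ± 0.10), and SLC16A10, an aromatic amino acid transporter (−0.42 ± 0.06).

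The class counts stand beside 10.7% of all genes rising and 13.3% falling in PC-3, and 19.8% and 22.8% in 22Rv1. By class, 4 of 5 genes listed under bicarbonate transport rose in PC-3, 3 of 5 rose in 22Rv1 and none fell. These were listed by gene family, without regard to what each protein carries. The 4 in PC-3 include SLC4A11 (0.26) and SLC4A2 (0.20, limma adjusted p = 0.048). SLC26A6 rose in both lines (0.62 ± 0.06 in 22Rv1). SLC4A3, another of the 3 in 22Rv1, was detected there on 1 of 24 arrays. Of 5 other genes of the carbonic anhydrase family 1 rose in PC-3 and 3 in 22Rv1. The 3 were CA5B, CA8 (0.33) and CA11 (0.72), and the family was listed without regard to enzyme activity. CA5B, 1 of these 3, was detected in 22Rv1 on 5 of 12 hypoxia arrays and on no normoxia array. Of 21 vacuolar proton pump genes none rose and 4 fell in PC-3, and 4 rose and 7 fell in 22Rv1. ATP6V1G2, 1 of the 4 that rose, was detected in 22Rv1 on 7 of 12 hypoxia and 1 of 12 normoxia arrays. Of 14 genes of lactate and pyruvate transport and interconversion, 2 rose and 2 fell in PC-3, and 3 rose and 4 fell in 22Rv1. Of 8 genes of sodium-proton exchange 1 rose in PC-3, and 2 rose and 1 fell in 22Rv1. Of 4 genes of proton sensing and proton channels 1 rose in PC-3 and 2 in 22Rv1. ASIC3 (ACCN3 on the array), 1 of these 2, was detected in 22Rv1 on 6 of 12 hypoxia and 1 of 12 normoxia arrays.

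**Figure D5:**
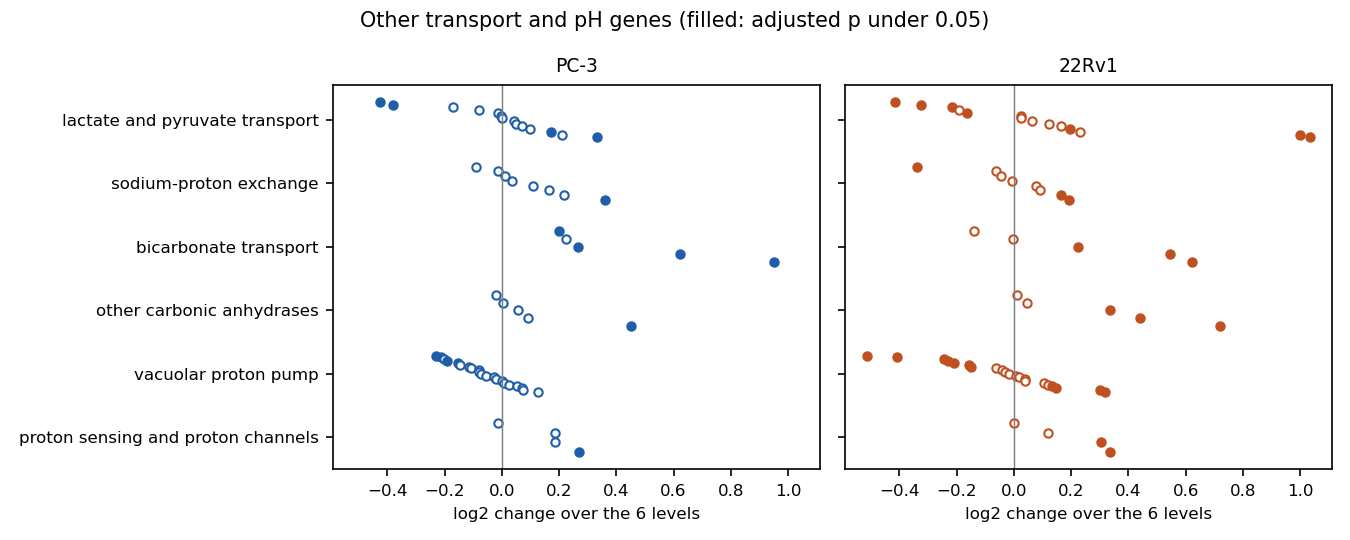
Log2 change over the 6 levels (x axis) of the 57 other genes tested, each a point, by class (y axis) in PC-3 and 22Rv1, filled where the adjusted p was under 0.05. Bicarbonate transport has 4 of 5 filled points in PC-3 and 3 of 5 in 22Rv1, all to the right of 0. The vacuolar proton pump has 4 filled points to the left in PC-3, and 7 to the left and 4 to the right in 22Rv1.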

How the data were processed

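RNA of 48 samples of the PC-3 and 22Rv1 cell lines was measured on Illumina bead arrays. The deposited probe table gives an intensity and a detection p-value per probe and array, for which the submitters' processing notes name BeadStudio (version 3.1.3.0). A second deposited table holds intensity values on a linear scale with an array median of 101.2 on every array, and no source used here states how they were normalized, centred or transformed. Columns of the first table were matched to samples by line, condition, level and the letter A or B as replicate 1 or 2. The tables agree on 46 arrays and exchange 2.

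Background was corrected with limma 3.58.1 in R 4.3.3 (normal-exponential model from the detection p-values, offset 16), followed by quantile normalization and log2. Probes detected (p under 0.01) on at least 2 arrays were kept, and the brightest probe stood for each of 16438 symbols. Members and pathway genes detected in 1 condition of 1 line only (CA9 and SLC26A3) entered no reported test and no count of members or pathway genes, a choice made after seeing the data. The 16438 symbols include 506 such genes, which stayed in the adjustment of p-values and in the shares of all genes. A mean per group was fitted over all 48 arrays with moderated variances and a variance trend. P-values were two-sided and adjusted by the Benjamini-Hochberg method over all genes of a comparison, with a threshold of 0.05. A fold against a group in which a gene was not well above background was taken against the lowest signal of a detected probe on each array and is written as a lower bound. The fit was tested on simulated data. The main fit did not include pairs. Same-numbered hypoxia and control arrays were treated as pairs only in the counts of pairs and in the alternative fit with the replicate block. Pairs were formed because the deviations of these arrays correlated at every level (0.33 to 0.47 in PC-3, 0.18 to 0.45 in 22Rv1). With same-numbered controls of other levels the mean correlation was lower at each level but also above 0 (0.27 to 0.36 and 0.12 to 0.22).

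All 7 members were named, with every probe, and for each of 4 members the 3 genes with the most similar changes, and for the other pathway genes the 2 largest changes each way past the threshold in each line. Some genes these rules or the marker lists name are not reported here. The members and gene lists were chosen with earlier results of these data known. Alternatives covered normalization, background, table, pairing, filters, probes, controls, array weights, labels and single arrays. The other probes on their own and the omission of both disputed arrays were chosen after seeing the data. Python 3.11.15 with matplotlib 3.10.9 drew the figures, from tables made with pandas 2.3.3.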

Additional observations from a re-analysis of the deposited data

Results flagged for a closer look

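The response of SLC16A3 over the 6 levels differed between the lines, with 22Rv1 minus PC-3 at 1.97 on the log2 scale. The second CA12 probe, which stands outside the comparisons between genes, rose by 0.86 in PC-3 over the 6 levels and was not detected in 22Rv1. Groups of 2 arrays are too small for a test of single outlying arrays.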

How the results depend on the processing

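The number of members that passed over the 6 levels stayed within 1.5 times in PC-3 under every alternative run. In 22Rv1 it did so under all but the replicate block, where 4 passed in place of 2. With the block 3855 of all 16438 genes rose and 4341 fell there, against 3253 and 3755 in the main fit. Of the 24 member tests at single levels in PC-3, 8 passed, against 3 under median centring, 4 in the other table and 3 with that table's labels. With 1 array left out 6 to 8 passed. Calls among all genes changed too. At 1% 191 genes were higher in the main fit, 42 under median centring and 53 with the other labels. At 0.5% these were 395, 73 and 219. In PC-3 the slope passed for 1 member, and for 2 with the replicate block. It passed for none under median centring, in the other table, with its labels or without a filter, and for 0 to 1 with 1 array left out. Among all genes 156 passed upward there, against 441 with the block, 34 under median centring and 73 with the other labels. In 22Rv1 the slope passed for 2 members, and for 0 in the other table or with its labels. With those labels 558 of all genes passed upward, against 1093 in the main fit. At 0% beyond 0.2 to 1% 1 member passed in 22Rv1 with the replicate block, and 0 to 1 with 1 array left out. The block took all genes passing upward there from 1097 to 1605. The difference between lines passed for 1 member, and for 2 without background correction, in the other table or with the mean of a gene's probes, which for CA12 takes in a probe not detected in 22Rv1. BSG turned sign under median centring over the 6 levels in 22Rv1 (−0.0051) and between lines (−0.044). SLC4A7 in PC-3 turned sign without 0% O2 (0.0037) and with single arrays left out (−0.090 to 0.021, with positive values of 0.0059, 0.0028 and 0.021). The replicate block also let SLC4A7 pass in 22Rv1 without 0% O2 (0.18, adjusted p = 0.019, against 0.14), and besides the values beside the results it changed no other call of a tested member. Except where a count of genes or samples changed, the cause was not tested. Probes near background, as for CA9 and for CA12 and SLC4A7 in 22Rv1, limit the size of a change that can be read.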
